A study of Mus musculus with 7 samples.

Results

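Brown fat thermogenic genes are followed here through the mouse shoulder after rotator cuff repair. They are 6 genes listed by symbol, Ucp1, Cidea, Elovl3, Dio2, Ppargc1a and Prdm16, among 56854 gene identifiers counted in every library. Their identifiers are ENSMUSG00000031710 (Ucp1, chromosome 8), ENSMUSG00000024526 (Cidea, 18), ENSMUSG00000038754 (Elovl3, 19), ENSMUSG00000007682 (Dio2, 12), ENSMUSG00000029167 (Ppargc1a, 5) and ENSMUSG00000039410 (Prdm16, 4). All 6 had counts in all 7 libraries, and 5 passed the filter on low counts, Elovl3 being the exception. The samples were whole shoulder joints taken 2 weeks after the supraspinatus tendon of the left shoulder was repaired, from wild-type mice (WT, n = 3) and from Tnc-/- mice (n = 4), which lack the matrix glycoprotein Tenascin C; the kind of deletion is not given. The study asked how loss of Tnc bears on healing of the repaired tendon. Both groups had the repair, and no unoperated joint is part of the comparison. The labels give no strain, age or sex and do not say how much fat was dissected with the joint. Each library is 1 mouse, so p-values measure the spread between animals.

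Brown fat burns fuel to make heat. Noradrenaline acts on beta-adrenergic receptors of the brown fat cell, cyclic AMP rises, and fatty acids freed from lipid droplets are oxidised in mitochondria whose inner membrane is made leaky to protons by uncoupling protein 1, the product of Ucp1. Prdm16 and Ppargc1a are transcriptional regulators of this programme, Dio2 makes active thyroid hormone inside the cell, Cidea sits on the lipid droplet and Elovl3 lengthens fatty acids. Depots of brown fat lie between the shoulder blades, in the neck and in the armpit, close to the dissected joint.

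Of the 6 members, 4 had a promoter in the RefSeq table. The 250 bases before the transcription start of 3 of them are shown, since cyclic AMP is known to induce Ucp1, Dio2 and Ppargc1a and their levels in these libraries can be set against each other. Capitals mark matches to 3 motifs searched on both strands. The first is the cyclic AMP response element, TGACGTCA. The core of that element is TGACG, which reads CGTCA on the opposite strand, and every full element holds it in both directions. The last is the nuclear receptor motif AGGTCA, which reads TGACCT on the opposite strand. Sequences run 5′ to 3′ on the strand of the gene, in build GRCm38.p6.
Ucp1 (chr8:83290098-83290347, plus strand): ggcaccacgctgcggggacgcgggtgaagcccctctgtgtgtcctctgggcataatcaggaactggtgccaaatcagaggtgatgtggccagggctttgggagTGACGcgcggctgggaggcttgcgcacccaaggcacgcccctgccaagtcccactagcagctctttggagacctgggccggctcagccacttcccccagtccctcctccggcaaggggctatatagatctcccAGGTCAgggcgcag
Dio2 (chr12:90739039-90739288, minus strand): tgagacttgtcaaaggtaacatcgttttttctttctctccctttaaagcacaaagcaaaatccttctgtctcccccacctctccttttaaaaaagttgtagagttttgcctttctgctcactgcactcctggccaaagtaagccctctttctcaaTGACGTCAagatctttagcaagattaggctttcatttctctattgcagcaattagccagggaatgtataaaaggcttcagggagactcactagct
Ppargc1a (chr5:51567726-51567975, minus strand): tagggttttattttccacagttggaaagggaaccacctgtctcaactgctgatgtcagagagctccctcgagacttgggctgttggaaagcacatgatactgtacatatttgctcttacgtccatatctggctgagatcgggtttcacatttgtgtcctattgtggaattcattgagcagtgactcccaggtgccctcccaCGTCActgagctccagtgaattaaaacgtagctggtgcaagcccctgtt
The full element TGACGTCA stood in the window of Dio2, beginning 95 bases before the start, and in 1.55% of the 32851 promoters of the table. Ucp1 held the core TGACG 147 bases before the start and AGGTCA 14 bases before it. Ppargc1a held the core as CGTCA 49 bases before the start. The core occurred in 17.8% and AGGTCA in 14.0% of all promoters, and the window of Prdm16 held none of the 3 motifs. A match of letters is a description and does not show that a factor binds.

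The libraries held 13464057 to 18503833 gene counts in WT and 19250322 to 28191101 in Tnc-/-. Tnc was at 326 to 440 CPM (counts scaled to a library total of 1000000) in WT and at 32.0 to 50.2 CPM in Tnc-/-. WT libraries 2 and 3 stood apart from the other 5. The 2010 odorant and pheromone receptor genes, which a shoulder is not known to use, summed to 1564 and 1112 CPM there, to 89.8 CPM in WT 1 and to 33.3 to 41.5 CPM in Tnc-/-. These sums did not overlap between the genotypes, so a fit with them as a covariate extrapolates across the gap between the groups. In WT 2 and 3, genes that were nearly silent in Tnc-/- (mean under 0.5 CPM) had higher levels the longer their span on the chromosome. Results are also given without these libraries, in a fit that leaves WT 1 as the only WT library. The p-values of that fit do not measure the spread between WT mice. The files of the 2 genotypes hold different sets of identifiers (56980 in WT, 56941 in Tnc-/-). Any difference in counting between them cannot be told apart from the genotype.

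Ucp1, the proton channel that defines thermogenic fat, was read in every joint. Its level was 11.6, 41.4 and 37.4 CPM in WT 1 to 3 and 26.5, 61.9, 67.6 and 8.36 CPM in Tnc-/- 1 to 4. The highest library was 8.09 times the lowest, and both extremes were Tnc-/- mice. The groups overlapped, with WT at a mean of 30.1 ± 16.1 CPM (SD, n = 3) and Tnc-/- at 41.1 ± 28.4 CPM (SD, n = 4). The log2 fold change of Ucp1 in Tnc-/- relative to WT was 0.70 (SE 0.68), which did not pass the threshold (edgeR quasi-likelihood test, adjusted p = 0.465). Without WT 2 and 3 it was 1.93 (adjusted p = 0.5), and with the summed receptor gene level as a covariate it was 2.503 (adjusted p = 0.288). Leaving out 1 library gave 0.35 (without Tnc-/- 3) to 1.04 (without Tnc-/- 4), and 0.42 without Tnc-/- 2 and 0.43 without WT 1; none of these fits called Ucp1.

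Cidea, a lipid droplet protein abundant in brown fat, went up and down with Ucp1 from mouse to mouse. It was at 5.94, 31.6 and 37.4 CPM in WT 1 to 3 and at 12.9, 23.0, 29.6 and 5.54 CPM in Tnc-/- 1 to 4. WT 1 and Tnc-/- 4 were the lowest libraries for both genes, and Tnc-/- 1 came next above them for both. The groups overlapped (WT 25.0 ± 16.8 CPM, n = 3; Tnc-/- 17.8 ± 10.6 CPM, n = 4; means ± SD), and the log2 fold change of Cidea was -0.23 (SE 0.66; edgeR, adjusted p = 0.816). The direction of Cidea turned without WT 2 and 3 (1.68, adjusted p = 0.311) and with the receptor covariate (2.44, adjusted p = 0.167), and it also turned without WT 3 alone (0.17) or Tnc-/- 4 alone (0.06). Per kb of exon, Cidea was at 0.545 to 0.973 of Ucp1 in Tnc-/- and at 0.751, 1.12 and 1.47 of Ucp1 in WT 1 to 3.

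Elovl3, a fatty acid elongase that brown fat induces strongly in the cold, was barely read. It had 19, 6 and 6 counts in WT 1 to 3 and 8, 15, 9 and 9 counts in Tnc-/- 1 to 4, or 0.284 to 1.03 CPM. The most counts were in WT 1, where Ucp1 was low, and the 2 mice with the most Ucp1 had 15 and 9. Elovl3 did not pass the filter at this depth. With no filter its log2 fold change was -0.12 (SE 1.10, edgeR adjusted p = 0.943). It passed the filter in the fits without WT 2 (-0.40), without WT 3 (-0.44) and without both (-0.97). Ucp1 was 13.7 to 175 times higher than Elovl3 per kb of exon. Only 10 exon bases of Elovl3 overlap another gene, Pitx3, in GENCODE M21.

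Dio2, which turns thyroxine into the active hormone, ran against Ucp1. It was at 36.1, 17.8 and 30.5 CPM in WT 1 to 3 and at 18.5, 15.3, 15.8 and 19.6 CPM in Tnc-/- 1 to 4. WT 1 and Tnc-/- 4, the lowest libraries for Ucp1, were the highest of their groups for Dio2. WT averaged 28.1 ± 9.36 CPM (SD, n = 3) and Tnc-/- averaged 17.3 ± 2.09 CPM (SD, n = 4), with overlap through WT 2 alone. The log2 fold change of Dio2 was -0.50 (SE 0.26; edgeR, adjusted p = 0.183). It was below 0 in all 18 alternatives, and it passed the threshold without WT 2 (-0.75, adjusted p = 0.0357) and without WT 2 and 3 (-0.95, adjusted p = 0.0245, where 4.45% of all genes were called). With the receptor covariate it was -1.26 (adjusted p = 0.0602). It was nearest 0 without WT 1 (-0.11, adjusted p = 0.678). Of the exon bases of Dio2, 100 are shared with Gm26512.

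**Figure D1:**
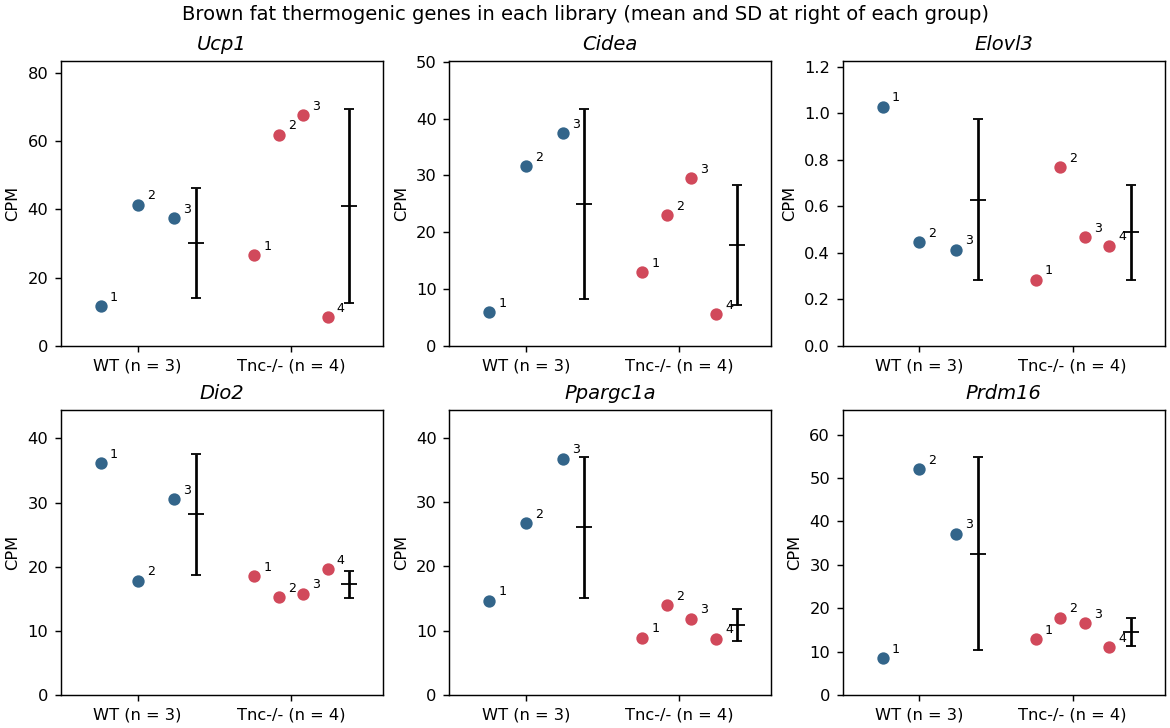
Level of each of the 6 genes in CPM (vertical axes, each from 0) in the 3 WT (blue) and 4 Tnc-/- (red) libraries, numbered by replicate, with the mean and SD in black. Ucp1 and Cidea are low in WT 1 and Tnc-/- 4, Dio2 is highest in WT 1, and Ppargc1a and Prdm16 are high in WT 2 and 3.

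Ppargc1a, the coactivator that drives mitochondrial biogenesis in brown fat and muscle, was the 1 member called between the genotypes. Of the 5 members tested, 1 was called, lower in Tnc-/-; of all 17791 genes tested, 29.0% were called and 18.7% were called lower. Ppargc1a was at 14.7, 26.7 and 36.8 CPM in WT 1 to 3 and at 8.90, 13.9, 11.9 and 8.74 CPM in Tnc-/- 1 to 4. All Tnc-/- libraries lay below all WT libraries, as in 24.1% of all genes tested, but WT 1 exceeded Tnc-/- 2 by little. The fold change was -1.01 on the log2 scale (SE 0.30; edgeR, adjusted p = 0.0355).

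The call on Ppargc1a was kept in 7 of 18 alternatives. Without WT 2 and 3, the log2 fold change of Ppargc1a was -0.33 (SE 0.29; edgeR, adjusted p = 0.511). With the receptor gene level as a covariate it was -0.06 (adjusted p = 0.958). Leaving out any 1 library other than WT 1 also ended the call, with adjusted p from 0.0502 to 0.163, while without WT 1 it was -1.18 (adjusted p = 7.4e-04, where 64.2% of all genes were called). Skeletal muscle also uses Ppargc1a, and 12 muscle genes summed to 31006 to 37804 CPM in WT and to 38178 to 54680 CPM in Tnc-/-. The part of muscle in the level of Ppargc1a was not tested. The share of all genes called was 35.1% with DESeq2, 9.29% with DESeq2 and Bonferroni adjustment and 5.64% with limma voom. It was 28.3% with DESeq2 size factors in edgeR, 30.9% with library totals and 27.6% with upper-quartile scaling. It was 26.3% with no filter, 24.3% with at least 10 counts in every sample and 10.9% with the replicate number as a block. Without 1 library it was 16.0% (WT 2), 12.3% (WT 3), 16.6% (Tnc-/- 1), 17.6% (Tnc-/- 2), 14.5% (Tnc-/- 3) and 16.5% (Tnc-/- 4).

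Prdm16, the zinc finger regulator that commits precursors to the brown fat fate, differed widely within WT, as did Cidea: the highest WT library was 6.18 times the lowest for Prdm16 and 6.30 times for Cidea. Prdm16 was at 8.43, 52.1 and 37.2 CPM in WT 1 to 3 and at 12.8, 17.8, 16.6 and 10.9 CPM in Tnc-/- 1 to 4. WT 1 was the lowest library of all and WT 2 and 3 the highest. The log2 fold change was -0.90 (SE 0.47; edgeR, adjusted p = 0.182). Without WT 2 and 3 its direction turned: it was 0.89 (adjusted p = 0.104) and with the receptor gene covariate it was 1.64 (adjusted p = 0.049, where 2.24% of all genes were called). Without WT 1 it was -1.25 (adjusted p = 2.6e-04). Of its exon bases, 109 are shared with B230104I21Rik.

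The spans of the members differ widely. WT 2 and 3 were the highest libraries for the short Cidea as well as for the long Prdm16 and Ppargc1a. Ucp1 spans 8.1 kb, Cidea 24.2 kb, Ppargc1a 113 kb and Prdm16 321 kb. Among protein-coding genes nearly silent in Tnc-/-, the 116 that span over 300 kb had a median of 73.6 CPM in WT 2 and 49.3 CPM in WT 3, above the 52.1 and 37.2 CPM of Prdm16. The 294 that span 100 to 300 kb had medians of 16.9 and 10.5 CPM and 90th percentiles of 49.6 and 34.4 CPM in WT 2 and 3. Ppargc1a, at 26.7 and 36.8 CPM, lay between them in WT 2 and just above the 90th percentile in WT 3. In genes of up to 10 kb the 90th percentile was 1.34 and 0.895 CPM in WT 2 and 3, against 41.4 and 37.4 CPM of Ucp1. In genes of 10 to 30 kb it was 8.77 and 6.13 CPM, against 31.6 and 37.4 CPM of Cidea. In WT 1 the median was 2.03 CPM in genes over 300 kb and 0.459 CPM at 100 to 300 kb. Low levels in Tnc-/- chose these genes, so their Tnc-/- medians are no contrast. The part of this background in the levels of Ucp1, Cidea, Ppargc1a and Prdm16 was not tested beyond the fits above.

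**Figure D2:**
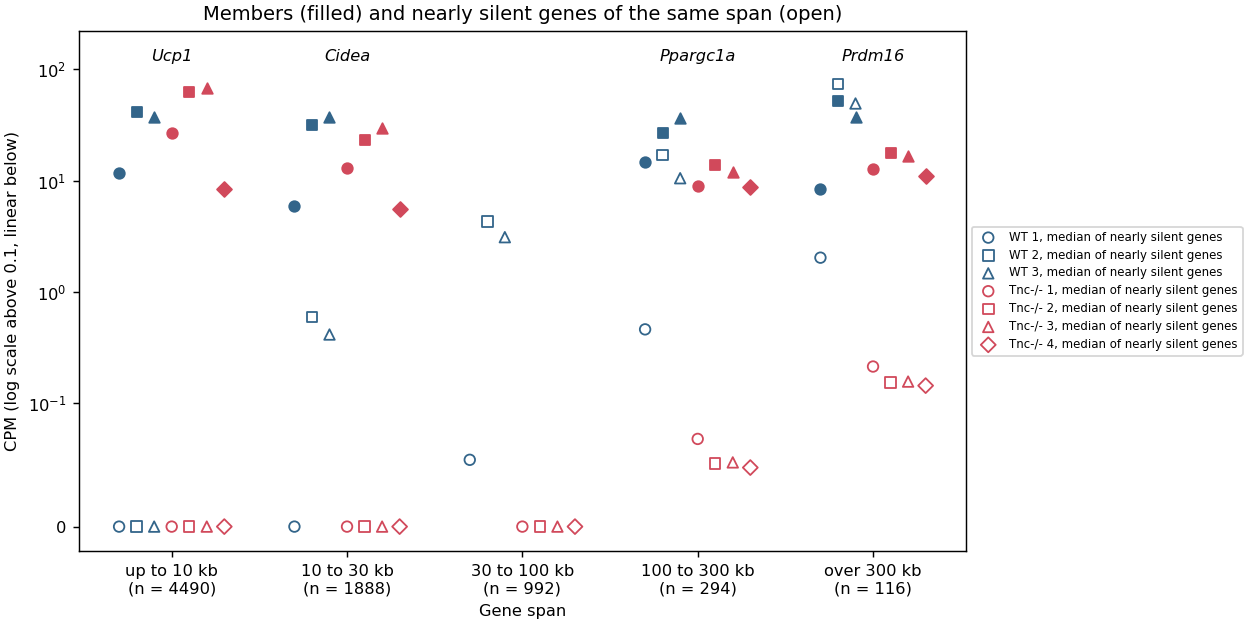
Level in CPM (vertical axis, logarithmic above 0.1 and linear below) of Ucp1, Cidea, Ppargc1a and Prdm16 (filled) and the median of protein-coding genes with a mean under 0.5 CPM in Tnc-/- (open), by class of gene span. Each marker is 1 library, WT in blue and Tnc-/- in red. In WT 2 and 3 the open markers climb with span and pass Prdm16 in the class over 300 kb.

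Per kb of exon, Ucp1 and Cidea had the highest means of the members and Elovl3 the lowest. Over the 7 libraries Ucp1 was at 22.2 ± 14.0 CPM per kb (SD, n = 7) and Cidea at 18.7 ± 11.5. Dio2 followed at 3.77 ± 1.39, Ppargc1a at 2.64 ± 1.59 and Prdm16 at 2.39 ± 1.74 CPM per kb, and Elovl3 was last at 0.277 ± 0.130. Over all 7 libraries the means of Ucp1 and Cidea lay within their SDs of each other, as did those of Dio2, Ppargc1a and Prdm16. Within Tnc-/-, Dio2 (2.62 to 3.37) lay above Ppargc1a (1.33 to 2.11) and Prdm16 (1.17 to 1.91) throughout. In WT 2 Dio2 (3.07) was below both. The ranges of Ucp1 (5.11 to 41.3) and Cidea (4.97 to 33.6) overlapped that of Dio2 (2.62 to 6.21). They also overlapped those of Ppargc1a (1.33 to 5.58) and Prdm16 (0.904 to 5.59). In WT 1 Dio2 (6.21) was above Cidea (5.33). The lowest Prdm16 library (0.904) was above the highest Elovl3 library (0.520). In the same unit the paralog Ucp2, common in immune cells, was at 61.7 ± 20.4 and Ucp3, the uncoupling protein of muscle, at 17.7 ± 8.36. Adipoq, the hormone adiponectin made by white and brown fat cells, was at 36.0 ± 9.03 CPM per kb, with a narrower range (25.9 to 48.5) than Ucp1. Relative to Adipoq, Ucp1 was at 0.254, 0.756 and 0.773 in WT 1 to 3 and at 0.391, 0.834, 0.852 and 0.197 in Tnc-/- 1 to 4. The mice low in Ucp1 were low relative to a general fat gene too. In RNA from a whole joint, fewer cells of a type and less RNA per cell cannot be told apart.

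The genes whose profile over the 7 libraries came closest to that of Ucp1 were makers of fatty acids, a lipid droplet protein and a pair of chemokines. Likeness was the root mean square difference of centred log2(CPM + 0.5) profiles, over 14231 genes whose average level was 1 CPM or more; the profile of Ucp1 itself had a root mean square of 1.05. Scd1, the desaturase that makes oleate, had rank 1 (0.44). It was at 390 CPM in WT 1, at 1122 and 1204 CPM in WT 2 and 3, and at 743, 1059, 1087 and 335 CPM in Tnc-/- 1 to 4. Cxcl2 had rank 2 (0.45), Cidea rank 3 (0.46), Cxcl3 rank 4 (0.46) and Fasn, the fatty acid synthase, rank 5 (0.47). Cxcl2 and Cxcl3 are neutrophil chemokines with 3.58 CPM at most, where the added 0.5 weighs on the profile. Scd1 and Fasn share with Ucp1 the low values of WT 1 and Tnc-/- 4: Fasn was at 144, 451 and 361 CPM in WT 1 to 3 and at 446, 550.0, 681 and 209.9 CPM in Tnc-/- 1 to 4. Prdm16 had rank 365 (0.90), Ppargc1a rank 3286 (1.04) and Dio2 rank 12227 (1.33). These profiles share the library totals and the 7 points, and likeness says nothing of common control.

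**Figure D3:**
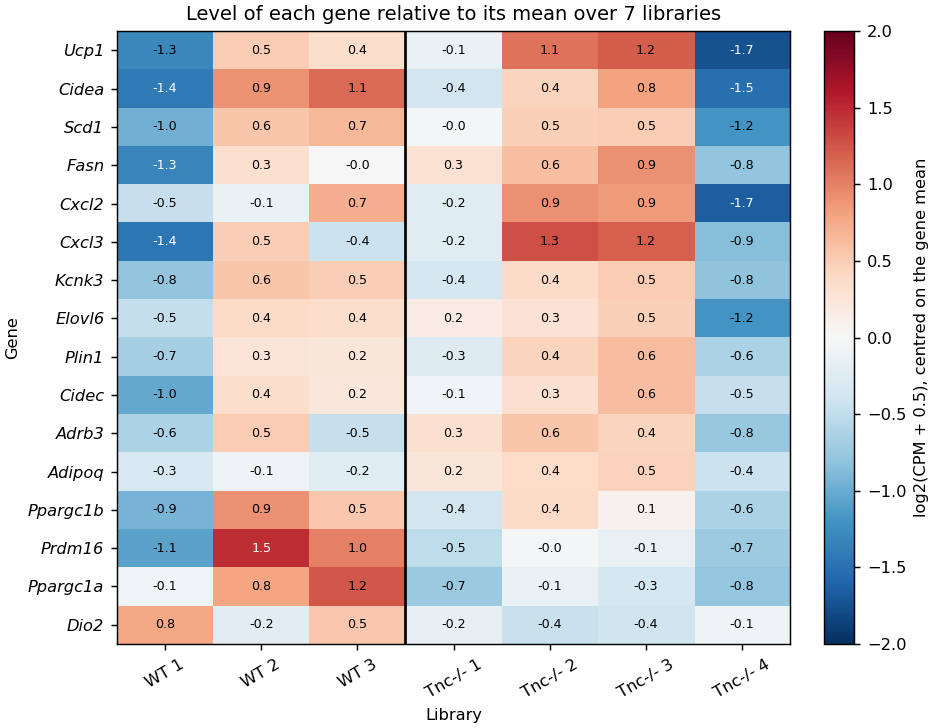
Centred log2(CPM + 0.5) (colour and printed value) of the 5 members that passed the filter, the 4 other genes closest to Ucp1 and 7 genes picked after their values were seen (rows) in the 7 libraries (columns; the black line parts WT from Tnc-/-). Ucp1, Cidea, Scd1 and Fasn are low in WT 1 and Tnc-/- 4, while Prdm16 and Ppargc1a are high in WT 2 and 3 and Dio2 is high in WT 1.

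Other genes of the pathway were read through 7 lists. Of 69 genes tested, 15 were called, 9 higher and 6 lower in Tnc-/-, or 21.7% against 29.0% of all genes tested. Each list's calls stand against 10.3% of all genes called higher and 18.7% called lower. With library totals in place of TMM the split of the 13 calls was 2 higher and 11 lower, as the median of all genes moved from -0.0009 to -0.24. With the receptor covariate 0 of 69 pathway genes were called (edgeR), against 2.24% of all genes, with 17 at an unadjusted p under 0.05. DESeq2 on all libraries called 18 of 69, or 26.1% against 35.1% of all genes. Without WT 2 and 3, which leaves 1 WT library, the 6 genes called lower ranged from -0.89 (Lhx8) to 0.87 (Cpn2). The 9 called higher then ranged from 0.35 (Ucp2) to 1.48 (Ucp3). Plin4 kept its call in 16 of 18 alternatives, Esrrg, Fabp3, Thrb and Ucp3 in 9, Ebf2 in 8, and Esrra and Tbx1 in 7. Adipoq and Pdk4 kept theirs in 5 of 18, Thra and Ucp2 in 4 of 18, Lhx8 and Elovl4 in 5 of 17 and Cpn2 in 5 of 16. With library totals, Adipoq, Esrra, Pdk4, Tbx1, Thra, Ucp2 and Ucp3 lost the call; Thra was then at 0.22 (edgeR, adjusted p = 0.187).

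The list of genes enriched in brown fat had a median log2 fold change of -0.77 over 11 tested genes, against -0.0009 over all genes tested. Of these 11, 0 were called higher and 3 lower in Tnc-/- (edgeR), Lhx8, Ebf2 and Cpn2, against 18.7% of all genes called lower. Ebf2, a regulator that marks brown fat precursors, was at 8.65, 47.1 and 32.97 CPM in WT 1 to 3 and at 3.82 to 8.76 CPM in Tnc-/- (-1.95, SE 0.49; edgeR, adjusted p = 0.0203), and spans 198 kb. Lhx8 was at 0.811, 5.57 and 1.45 CPM in WT (-2.43, SE 0.74; adjusted p = 0.0385; span 24.4 kb) and Cpn2 at 0.27, 10.6 and 5.16 CPM (-3.24, SE 0.99; adjusted p = 0.0394; span 11.1 kb). Cpn2 in WT 2 lay above the 90th percentile of nearly silent genes of its span class (8.77 CPM), but in WT 3 it lay below it (6.13 CPM). Lhx8, of the same class, lay below it in both libraries. Ebf2 lay below the 90th percentiles of its own class (49.6 and 34.4 CPM) in both. The level of all 3 was carried by WT 2 or 3, and the median of this list was 0.59 without them and 1.04 with the covariate. Adrb3, the beta-adrenergic receptor of fat cells, was at 6.38, 14.6 and 7.23 CPM in WT and at 5.78 to 15.2 CPM in Tnc-/-. Kcnk3, a potassium channel of brown fat, followed Ucp1, at 5.08, 13.6 and 13.1 CPM in WT 1 to 3 and 5.02 to 13.1 CPM in Tnc-/-, lowest in Tnc-/- 4; it had rank 10 in likeness to Ucp1 (0.56). In the same list Adrb3 had rank 20 (0.67). Otop1 had rank 4845 (1.07), above the root mean square of the Ucp1 profile itself (1.05). Zic1, a marker of the classical depot between the shoulder blades, was near 0, at 0 to 1.41 CPM. Of the others in the list, Acot11 was at 9.70 to 25.6 CPM, Gk at 4.78 to 20.6 CPM, Ppara at 4.11 to 10.5 CPM and Otop1 at 1.96 to 24.8 CPM.

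Oxidative genes that brown fat shares with muscle had a median of 0.43 over 11 tested genes, with 4 called higher and 1 lower. The muscle uncoupling protein Ucp3 rose from 35.9 ± 16.5 CPM in WT (SD, n = 3) to 69.9 ± 23.1 CPM in Tnc-/- (SD, n = 4; 1.20, SE 0.33; edgeR, adjusted p = 0.0267). Fabp3, a fatty acid binding protein, was at 129 ± 32.8 CPM in WT and 237 ± 60.1 CPM in Tnc-/- (1.09, SE 0.27; adjusted p = 0.0194). Pdk4, which spares glucose, was at 157 ± 69.9 and 288 ± 117 CPM (1.11, SE 0.36; adjusted p = 0.0465). The nuclear receptor Esrra was at 68.7 ± 9.35 and 91.6 ± 10.7 CPM (0.63, SE 0.17; adjusted p = 0.024). Esrrg, its relative with a span of 606 kb, was lower by 2.02 (SE 0.51, edgeR adjusted p = 0.0211). It was at 20.6, 112 and 85.8 CPM in WT 1 to 3 and at 11.6 to 24.6 CPM in Tnc-/-, with overlapping groups. Without WT 2 and 3 its log2 fold change was -0.35. The muscle list had a median of 0.65, with 2 of 12 genes called higher (Myh4 and Actn3) and 0 called lower; the part of muscle in the oxidative genes was not tested. Cox7a1 and Cox8b, respiratory subunits of both tissues, were at 74.7 to 172 and 113 to 220 CPM, with overlapping groups. Beige fat genes held 1 call of 5, Tbx1 (15.6 ± 3.34 CPM in WT, 24.4 ± 5.80 in Tnc-/-; 0.87, SE 0.24; adjusted p = 0.0277), against 10.3% of all genes called higher.

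General fat cell genes had a median of 0.37, with 2 of 11 called higher and 0 called lower. Plin4, a lipid droplet coat protein of fat and muscle, rose from 52.7 ± 12.3 CPM in WT (SD, n = 3) to 128 ± 31.2 CPM in Tnc-/- (SD, n = 4; 1.49, SE 0.26; edgeR, adjusted p = 0.00763), with groups apart. Adipoq rose from 41.9 ± 3.89 to 55.7 ± 13.9 CPM (0.63, SE 0.21; adjusted p = 0.0491), with overlapping groups. Plin1 and Cidec, droplet proteins of fat cells, had the shape of Ucp1, with 37.9 and 38.7 CPM of Plin1 in WT 1 and Tnc-/- 4 and 50.6 to 93.1 CPM in the other 5 libraries. Of 5 genes enriched in white fat, 0 were called (edgeR). Adipsin (Cfd) was at 111 to 328 CPM, Nnmt, an enzyme of nicotinamide turnover, at 17.6 to 31.3 CPM, angiotensinogen (Agt) at 13.8 to 23.5 CPM and resistin (Retn) at 4.96 to 22.95 CPM. Leptin (Lep) was at 6.70 CPM or less.

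Among regulators and partners of the thermogenic programme, 1 of 17 was called higher and 1 lower in Tnc-/-, both thyroid hormone receptors, and the list median was -0.11. Thra rose from 75.7 ± 9.61 to 89.4 ± 5.93 CPM (0.46, SE 0.13; edgeR, adjusted p = 0.0291). Thrb fell by 1.03 (SE 0.27; adjusted p = 0.0233), with 23.9, 54.8 and 39.4 CPM in WT 1 to 3 and 13.2 to 20.9 CPM in Tnc-/-, and spans 378 kb. Ppargc1b, the relative of Ppargc1a, was at 14.7, 53.9 and 41.4 CPM in WT and at 18.2 to 37.3 CPM in Tnc-/-, and was not called. Among 13 tested paralogs of the members, 2 were called higher (Ucp2 and Ucp3) and 1 lower, with a median of -0.19. Ucp2 was at 327 ± 101 CPM in WT and 509 ± 123 CPM in Tnc-/- (0.84, SE 0.27; adjusted p = 0.0488). Elovl4, an elongase, was lower by 2.45 (SE 0.67, edgeR adjusted p = 0.0264). It was at 0.973, 5.87 and 6.13 CPM in WT 1 to 3 and at 0.461 to 0.851 CPM in Tnc-/-. Without WT 2 and 3 its log2 fold change was -0.46. Dio1, the deiodinase of liver, was at 19.4 and 15.2 CPM in WT 2 and 3 and at 0.324 CPM or less in the other 5 libraries.

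Other cell types that use these genes were checked by their markers. Cidea and Elovl3 are known in sebaceous glands. The 6 sebaceous genes summed to 3.90 to 4.73 CPM in Tnc-/- and 7.67 CPM in WT 1, and to 36.6 and 33.2 CPM in WT 2 and 3. Of that sum, Mc5r (span 4.85 kb) gave 11.6 and 7.98 CPM, above the 90th percentiles of nearly silent genes of up to 10 kb. Krt79 (11.0 kb) gave 3.19 and 9.29 CPM, above the 90th percentile of its class in WT 3 only. Scd3 (40.7 kb) gave 10.3 and 6.95 CPM and Awat2 (40.5 kb) gave 9.36 and 6.19 CPM, below the 90th percentiles of 19.1 and 14.2 CPM of genes of 30 to 100 kb. Awat1 was highest in WT 1 (1.57 CPM) and at 0.206 CPM in WT 3. The 2 WT libraries with the highest sebaceous sums were also the 2 libraries highest in Cidea. Within Tnc-/- the order was reversed. Tnc-/- 4 had the highest sum and the least Cidea (5.54 CPM), and Tnc-/- 3 the lowest sum and the most Cidea (29.6 CPM). WT 1 exceeded every Tnc-/- sum, with Cidea at 5.94 CPM. The 7 epidermis genes summed to 2.81 to 3.69 CPM in Tnc-/- and to 2.32, 30.9 and 18.9 CPM in WT 1 to 3. Most of the sum in WT 2 and 3 was Dsp, a desmosome protein, at 30.3 and 17.1 CPM, and Krt10 was at 0.594 to 2.61 CPM over all libraries. Krt5, Krt14, Krt1, Flg and Krt15 had 0.703 CPM at most in any library. Cartilage and bone genes summed to 1573 to 2430 CPM in WT and 1350 to 2889 CPM in Tnc-/-, and endothelial genes to 586 to 594 and 395 to 478 CPM. Against 18.7% of all genes called lower and 10.3% called higher, called genes were 2 of 5 in the sebaceous list (Mc5r and Krt79, lower), 1 of 2 in epidermis (Dsp, lower), 1 of 8 in cartilage and bone (Bglap, higher) and 2 of 6 in endothelium (Tek and Emcn, lower). The part of these cell types in the members' levels was not tested.

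**Figure D4:**
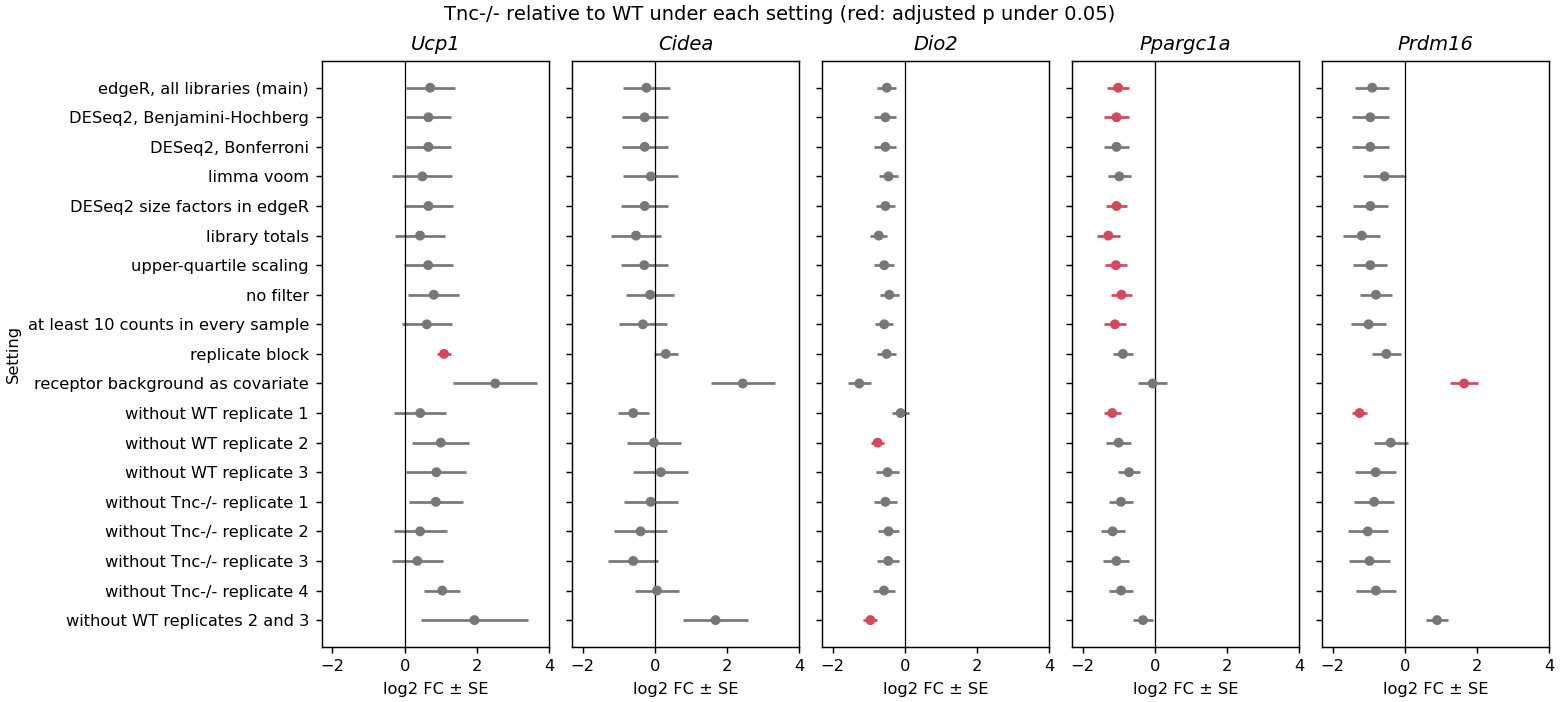
Log2 fold change of 5 members in Tnc-/- relative to WT with its SE (horizontal axis) under each setting (vertical axis); red marks an adjusted p under 0.05. Ucp1 stays above 0 and Dio2 and Ppargc1a below 0 throughout, while Cidea and Prdm16 cross 0.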

How the data were processed

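The samples were whole shoulder joints of 7 mice, 1 library per mouse. Libraries were made after poly(A) capture with a NEBNext Ultra kit, per the labels. Each deposited file lists, for 1 library, the whole-number read count of every gene. The submitters' processing notes name FastQC 0.11.9, HISAT2 2.2.1, HTSeq 2.0.2, DESeq2 1.38.3 and the build GRCm39 (mm39); the annotation release and the strand setting are not given in the sources used here. The Tnc-/- files hold 5 rows that name no gene (30.1 to 32.7% of the reads listed there), which were left out. The 2 genotypes have different identifier sets (56854 in common), and this difference falls together with the genotype. The number of unmapped value columns was 0.

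CPM are counts scaled to a total of 1000000 over the common identifiers. Tests used edgeR 4.0.16 in R 4.3.3 (filterByExpr, TMM scaling, robust quasi-likelihood F test, Benjamini-Hochberg over all tested genes, threshold 0.05). Fold changes are on the TMM scale. TMM factors were 1.008, 1.15 and 1.15 in wild-type libraries 1 to 3 and 0.914 to 0.96 in Tnc-/-. The code was tested on simulated data. Lengths, spans and overlaps come from GENCODE M21 (GRCm38), and promoters from RefSeq (GRCm38.p6), where 4 of the 6 members matched. Alternatives were DESeq2 1.42.0, limma 3.58.1 voom, other scalings, other filters, the summed level of odorant and pheromone receptor genes as a covariate, the replicate number as a block, and libraries left out. The 6 members and the 12 gene lists were chosen with earlier results of these data known. All members are named. The naming rule took from each list the called genes and otherwise up to 4 with the highest mean CPM. Adrb3, Kcnk3, Zic1, Acot11, Gk, Ppara, Otop1, Cox7a1 and Cox8b fall outside it and were picked after their values were seen. So were Plin1, Cidec, Lpl, Cd36, Car3, Pparg, Lep, Ppargc1b, Dio1 and the uncalled sebaceous and epidermis genes. The 5 genes with the profile closest to that of Ucp1 are named too.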

Additional observations from a re-analysis of the deposited data

How the results depend on the processing

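Each of the 5 tested members had 18 alternatives, and Ucp1 stayed above 0 and Dio2 and Ppargc1a below 0 in all of them. Elovl3 could be fitted in 4, below 0 and not called in each. Tnc kept its call in all 18. Cidea was reversed with the replicate block (0.30), with the receptor covariate (2.44), without WT 2 and 3 (1.68), without WT 3 (0.17) and without Tnc-/- 4 (0.06), with no call in any. Prdm16 was reversed with the covariate (1.64, called) and without WT 2 and 3 (0.89). Ppargc1a lost its call with DESeq2 and Bonferroni adjustment (-1.06), limma voom (-0.98), the replicate block (-0.88), the covariate (-0.0598) and without WT 2 and 3 (-0.33). Dio2 gained a call without WT 2 (-0.75), and was at -0.95 without WT 2 and 3, where WT 1 is the only WT library. Leaving out 1 library gave 0.35 to 1.04 for Ucp1, -1.18 to -0.71 for Ppargc1a, -0.75 to -0.11 for Dio2, -1.25 to -0.39 for Prdm16 and -0.60 to 0.17 for Cidea. The replicate block, in which samples share only a number (correlations of same-numbered deviations -0.0287, 0.0731 and -0.0136 over 17791 genes), made Ucp1 a call (1.09). It gave 1932 calls over all genes and 6 in the pathway lists, against 5159 and 15.

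Calls over all genes were 1653 with DESeq2 and Bonferroni adjustment, 1004 with limma voom, 399 with the covariate, 825 without WT 2 and 3, and 2229 to 14113 with 1 library left out. Calls in the pathway lists were 1 with DESeq2 and Bonferroni adjustment, 1 with voom, 9 with at least 10 counts in every sample, 0 with the covariate, 0 without WT 2 and 3, and 1 to 37 with 1 library left out. Called members numbered 0 with DESeq2 and Bonferroni adjustment and with voom (1 at an unadjusted p under 0.05 in each, Ppargc1a), and 0 to 2 with 1 library left out. With the covariate Cpn2 (2.32), Ebf2 (0.38), Elovl4 (0.30) and Esrrg (0.36) were reversed, as was Cpn2 without WT 2 and 3 (0.87). The cause was not tested. Without WT 2 and 3, WT 1 is assumed to vary like the Tnc-/- libraries. The covariate did not overlap between the genotypes, so the fit with it extrapolates. The order of the 6 members' mean levels was the same with the longest transcript as length, but Ucp3 (22.6 CPM per kb) then stood above Ucp1 (22.2) and Cidea (18.7). At 6 to 19 counts per library, Elovl3 allowed no test of a moderate change.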

Other observations

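The genes closest in profile to Cidea, chosen after the values were seen, were Scd1 (root mean square difference 0.35), Agrp (0.39), Pm20d1 (0.40), Ly6g6d (0.43) and Acaca (0.43). Pm20d1, a secreted enzyme made by cells that express Ucp1, was at 0.324, 2.23 and 3.85 CPM in WT 1 to 3 and 0.43 to 3.94 CPM in Tnc-/-, lowest in Tnc-/- 4. Acaca, which makes malonyl-CoA for fatty acid synthesis, was at 46.0 and 48.5 CPM in WT 1 and Tnc-/- 4 and at 82.9 to 176 CPM in the other 5 libraries. Agrp, known for its role in the hypothalamus, was at 12.3 and 14.0 CPM in WT 2 and 3 and at 2.05 to 5.87 CPM elsewhere, and 228 of its exon bases are shared with other genes.

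Lipe, the hormone-sensitive lipase that frees fatty acids for thermogenesis, and Cpt1b, which carries them into mitochondria, had 0 counts in all 7 libraries, although Acta1, Ckm, Plin1 and Adipoq were well read. In GENCODE M21 Cpt1b shares 2744 exon bases with Gm44502 and Lipe shares 918 with 4732471J01Rik. Chkb, which also overlaps Gm44502, had 0 counts in all libraries too. No statement on Lipe, Cpt1b or Chkb can be drawn from these counts.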
